A study of Arabidopsis thaliana with 12 samples.

Results

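Late root tip regeneration in Arabidopsis thaliana was compared with its start, as 6 ATAC-seq libraries taken 14 h or 16 h after removal of the tip against 3 libraries taken at 2.5 h. ATAC-seq marks open chromatin by the sites where the Tn5 transposase can insert sequencing adapters. The comparison covered the 99054 regions with identical coordinates in the region sets of the 3 times. They are 72.34% of the 14 h set (136932 regions), 91.85% of the 16 h set (107842) and 84.74% of the 2.5 h set (116892). Coordinates alone decided which regions entered, and 97057 of them carried a gene name, for 28251 genes. The gene is the one with the nearest transcription start, and for 26928 of the 82085 regions whose annotation names a gene it is another gene than the annotated one.

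All 9 libraries came from 7 DAS plants of the MP::MP-GFP line, which carries a GFP fusion of MONOPTEROS (MP) under the MP promoter. About 130 µm of tip had been cut off, about 200 µm above the cut was collected after the wait, and protoplasts were sorted on GFP, so each library describes cells in which the MP promoter drove the fusion. The 14 h group had 3 libraries of about 1000 nuclei, the 16 h group had 2 of 1000 and replicate 3 of 2000, and the 2.5 h group had 3 of 1000. A further 3 libraries of 50000 nuclei from uncut Col-0 roots, sorted on DAPI, are given as levels only, because they differ from the others in line, sort and input as well as in cutting. The labels do not say that replicates came from separate plants or days, so p-values measure the spread between these libraries, which may be technical. In bulk libraries, a smaller share of cells with an open region and a less open region in each cell cannot be told apart.

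A root that has lost its tip can rebuild the stem cell niche from the vascular and ground tissue left in the stump. Auxin, made again above the wound, is read by response factors of the ARF family such as MP, which in the embryo and the root acts in vascular and root pole formation. Cytokinin, wound peptides, jasmonate and ethylene act beside auxin in this setting, and SHR, SCR and their zinc finger partners pattern the ground tissue around the niche.

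The shared regions held 7668397 to 12426631 reads in the 14 h libraries, 1239134 to 1949238 in the 16 h libraries and 1442443 to 3901920 in the 2.5 h libraries. Within a time, the Spearman correlation of 2 libraries over regions was 0.471 to 0.571 at 14 h, 0.389 to 0.419 at 16 h and 0.212 to 0.248 at 2.5 h, so the early libraries resembled each other least. Genes used as markers of several tissues, leaf among them, had reads at both stages. Reads at a marker gene therefore do not show that its tissue was present. The summed level of 5 stele markers (ATHB8, PHB, SHR, PHO1, WOL) was 297 to 414 CPM (reads per 1000000 reads, scaled) in late libraries and 309 to 379 CPM in 2.5 h libraries. The sum over the endodermis markers CASP1, ESB1 and MYB36 was 99.7 to 154 CPM late and 155 to 184 CPM at 2.5 h. The 3 epidermis markers summed to 103 to 133 CPM late and 60.7 to 114 CPM at 2.5 h, the 3 root cap markers to 57.7 to 100 CPM late and 64.7 to 115 CPM at 2.5 h, and the 4 leaf markers to 152 to 239 CPM late and 232 to 286 CPM at 2.5 h. No marker passed the test below, and CO2, the cortex marker, had no shared region. A single marker, of the epidermis, was at 0 in a library.

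MP itself (AT1G19850, chromosome 1, 11 regions between 6881528 and 6890565) did not pass the test between the stages. Its regions summed to 306, 289 and 298 CPM at 14 h and 341, 219 and 264 CPM at 16 h, against 305, 368 and 229 CPM at 2.5 h. The late mean was 286 ± 41.3 CPM (SD, n = 6) and the 2.5 h mean 301 ± 69.5 CPM (SD, n = 3), a log2 fold change of -0.07 ± 0.20 (SE; adjusted p 0.929, edgeR's quasi-likelihood test with Benjamini-Hochberg adjustment). The ranges of the stages overlap, and none of the 11 regions was called. Uncut Col-0 roots held 108 ± 3.72 CPM (SD, n = 3). The MP sequence in the transgene can add reads to these regions in all 9 sorted libraries and in no uncut one.

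The late libraries spread their reads over many more regions than the early ones. With every library thinned to the lowest total of 1239134 reads, 91.2%, 95.5% and 94.8% of regions had at least 1 read at 14 h and 95.2%, 92.2% and 94.9% at 16 h, against 70.4%, 71.5% and 62.3% at 2.5 h. All 6 late libraries lay above all 3 early ones, with means of 94.0 ± 1.80% (SD, n = 6) and 68.1 ± 5.00% (SD, n = 3). The exact permutation test over libraries gave p = 0.0238 (two-sided), the smallest value that 6 libraries against 3 allow. At equal depth this amounts to 13.3 ± 0.254 reads per region with a read late and 18.4 ± 1.42 at 2.5 h, which is the same measurement in another form. Uncut roots had 99.5% to 99.7% of regions with a read. At full depth every shared region had a read in all 3 uncut libraries. Their breadth may be preset by how the regions were chosen, which was not tested.

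**Figure D1:**
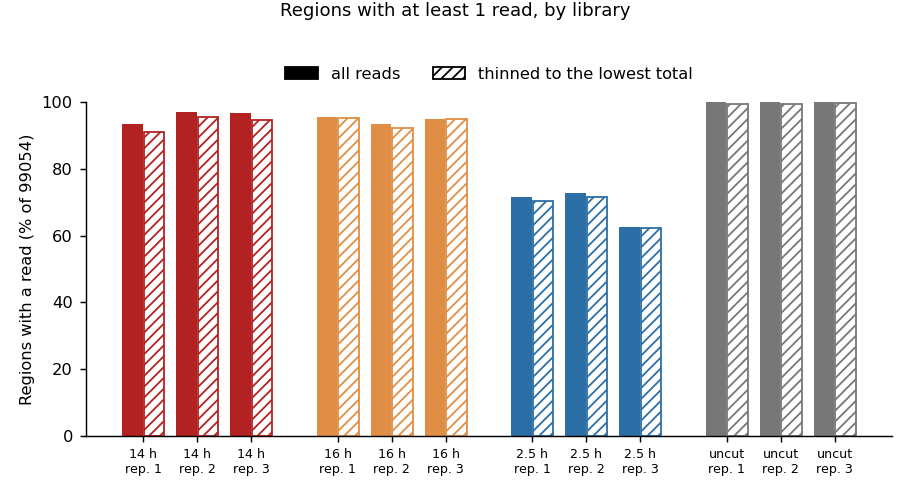
Share of the 99054 regions with at least 1 read in each library, with all reads (filled) and after thinning to the lowest total (hatched). The 6 late libraries reach 91.2% to 95.5% after thinning, above the 62.3% to 71.5% of the 3 libraries of 2.5 h.

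Which regions were read differed among the 2.5 h libraries as well. After thinning, 38.6% of regions had a read in all 3 libraries of 2.5 h, against 88.2% for the 3 of 14 h and 89.0% for the 3 of 16 h. No read in any of the 3 was found for 2.49% of regions at 14 h, 2.55% at 16 h and 7.71% at 2.5 h. Each kind of location showed the gap. In promoters, 96.1 ± 1.26% of regions had a read late and 68.9 ± 5.77% at 2.5 h, and in exons the values were 97.0 ± 1.56% late and 71.7 ± 5.34% at 2.5 h. Intergenic regions were read less often at both stages, at 80.2 ± 3.75% late and 53.9 ± 3.37% at 2.5 h (SD, n = 6 and 3 throughout).

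Breadth is given for the chromosomes without a test between them. Chromosomes 3 and 5 had 96.9 ± 2.19% and 97.8 ± 1.45% of regions with a read late, and 71.6 ± 2.92% and 72.1 ± 5.18% at 2.5 h. Chromosome 2 had 89.8 ± 2.04% late and 64.3 ± 4.46% at 2.5 h, and chromosomes 1 and 4 had 92.7 ± 1.63% and 91.0 ± 1.93% late and 65.7 ± 8.30% and 65.7 ± 3.42% at 2.5 h. The 2.5 h means of these 3 chromosomes lay closer together than their SDs. In uncut roots all 5 chromosomes were within 99.5% to 99.6%.

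The division of reads over locations passed no test after adjustment. Promoter regions took 21.8 ± 0.858% of reads late and 20.8 ± 0.607% at 2.5 h, exons 47.0 ± 0.449% late and 47.1 ± 0.322% at 2.5 h, and regions at transcription ends 19.3 ± 0.167% late and 19.6 ± 0.166% at 2.5 h. Intergenic regions took 9.64 ± 0.922% late and 10.6 ± 1.11% at 2.5 h. Introns took 2.16 ± 0.075% late and 1.89 ± 0.0457% at 2.5 h, and here all 6 late libraries lay above all 3 early ones (exact permutation p = 0.0238), but over the 11 classes compared the Benjamini-Hochberg adjusted p was 0.262. The other 10 classes, among them regions within 1 kb of a transcription start and each chromosome, had adjusted p of 0.458 to 0.857. Chromosome 1 took 24.1% to 24.9% of reads in the late libraries but 24.1%, 27.4% and 21.0% in the 3 libraries of 2.5 h.

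Region by region, nearly all calls were of regions with more reads late. Of 90858 regions tested, 2775 were higher late than at 2.5 h (3.05%) and 17 were lower (0.0187%) at an adjusted p under 0.05 in edgeR's quasi-likelihood test with Benjamini-Hochberg adjustment. The higher regions had 2534 genes nearest to them, of which 2368 had a single such region. Of the 2775, 2420 (87.2%) had no read in the 3 libraries of 2.5 h, 259 had reads in 1 of them, 34 in 2 and 62 in all 3. In all, 7241 of the shared regions had no read at 2.5 h, and the 2879 of them that were tested passed the filter on low counts through their late reads alone. They could differ only upward, so their count and direction are a description. Of these 2879, 84.1% were called. The 2420 called ones were narrow and of low level, with a median width of 92 bp and a median late level of 7.62 CPM, beside 5.85 CPM in uncut roots. The 62 higher regions with reads in all early libraries were wider, at a median of 350 bp, with a median of 34.1 CPM late and 32 CPM in uncut roots. No late library overlapped the early range in 2753 of the higher and 16 of the lower regions. Of all tested regions, 8.74% and 0.936% are separated in these directions. The calls were made on the same libraries, so their separation is no further support.

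The lower breadth of the 2.5 h libraries moves with this result, and its part in the calls was not tested. PCR cycles were set for each library, and their part was not tested. With all libraries thinned to the lowest total, 115 regions were higher and 3 lower. The median log2 fold change over all tested regions was 0.38 with the TMM scaling used here, 0.28 with DESeq2 size factors and 0.12 with total counts, so the size of single changes reads against that shift. Leaving out any 1 of the 6 late libraries left 0 calls in either direction, with 5979 to 7288 regions higher and 600 to 782 lower at an unadjusted p under 0.05 (8.91% and 0.947% of regions with all libraries) and a smallest adjusted p of 0.0522 to 0.0775. Leaving out 1 library of 2.5 h gave 6583 to 9667 higher and 111 to 176 lower regions. DESeq2 called 5722 higher (5.95%) and 191 lower (0.198%), the edgeR calls among them.

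**Figure D2:**
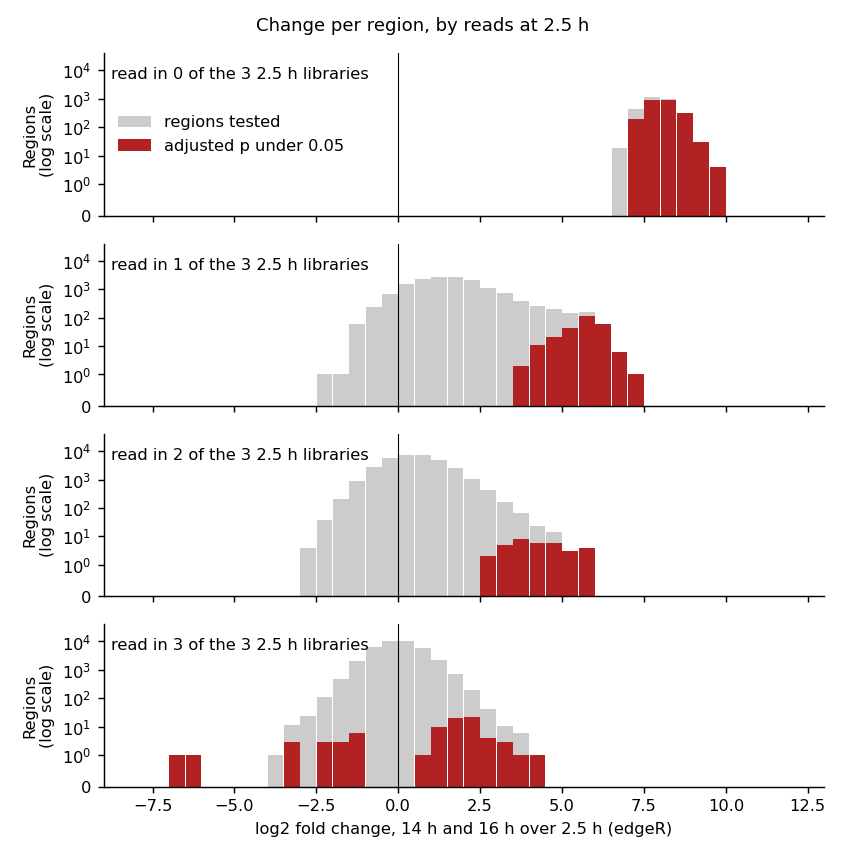
Number of tested regions (log scale) by log2 fold change of 14 h and 16 h over 2.5 h, in 4 panels for regions read in 0, 1, 2 or 3 of the libraries of 2.5 h, with called regions in red. The regions without an early read sit apart at log2 values of 6.75 to 9.79, and those read in all 3 libraries centre on -0.01. The fitted values of the first panel depend on the prior count and are no measure of size.

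The share of higher regions by location was not tested. Higher calls made up 4.31% of 1974 intron regions, 3.6% of 11052 intergenic regions, 3.36% of 19921 promoter regions, 2.86% of 40908 exon regions and 2.65% of 17001 regions at transcription ends. The shares of regions without a read at 2.5 h had the same order, at 4.81%, 4.34%, 3.43%, 2.82% and 2.74% in those locations. Most higher regions had no read at 2.5 h, so both orders rest largely on the same regions.

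The higher regions with the largest fitted changes among those above the median level lay at genes of varied function. Without an early read a fitted value is no measure of size, and the order of these regions followed their late means. All 8 named here had 0 reads in every 2.5 h library and passed the filter through late reads alone. They could differ only upward, so their values are a description. Each fold is set against 3 reads over the 2.5 h group (0.351 CPM), a bound that covers counting error only. A region in the first intron of BIP1 (AT5G28540, chromosome 5, 10542993 to 10543281), which encodes a chaperone of the endoplasmic reticulum, had 24.6, 24.0 and 18.2 CPM at 14 h and 30.7, 31.2 and 26.5 CPM at 16 h. It was at least 73.7-fold higher late by this bound, and uncut roots held 11.4 to 13.3 CPM. All late libraries were above the uncut ones as well.

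In exon 2 of NRS/ER (AT1G63000, chromosome 1, 23343404 to 23343790), an enzyme of UDP-rhamnose synthesis, the late libraries had 17 to 34.2 CPM with a median of 21.9 CPM. This was at least 66.5-fold higher than at 2.5 h, and uncut roots had 16.0 to 19.8 CPM. HMGS (AT4G11820, chromosome 4, 7110698 to 7111052, exon 4) encodes the HMG-CoA synthase of the mevalonate route to sterols, and its region had 14.7 to 31.4 CPM late with a median of 24.1 CPM, at least 66.2-fold higher. A region of chromosome 2 (5650065 to 5650373), nearest to the start of NAD-ME1, a mitochondrial malic enzyme, and annotated to the promoter of the neighbouring AT2G13550, had 15.4 to 31.7 CPM late with a median of 19.9 CPM, at least 60.8-fold higher.

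ATMPK8 (AT1G18150, chromosome 1, 6246832 to 6247032, exon 2) is a MAP kinase of the wound response. Its region had 7.53, 16.6 and 14.3 CPM at 14 h and 19.7, 38 and 21.4 CPM at 16 h, at least 55.8-fold higher than at 2.5 h. PROPEP1 (AT5G64900, chromosome 5, 25937805 to 25937965, exon 2) encodes the precursor of a peptide that signals tissue damage. It had 44.6, 8.14 and 12.9 CPM at 14 h and 8.03, 13.6 and 19.7 CPM at 16 h, at least 50.8-fold higher, with 14 h replicate 1 far above the other 5. The remaining 2 are nearest to the start of UNE12, a bHLH factor, and of BZIP49, a bZIP factor, and both lie at the transcription end of a neighbouring gene. Their late levels were 12.6 to 25.6 CPM and 8 to 31.2 CPM, at least 49.5-fold and 49.4-fold higher. Uncut roots had a mean of 15.6 and 10.2 CPM at these 2 regions.

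All 17 lower regions were read in all 3 early libraries. The largest fitted losses were at 2 regions below the median level, which the naming rule left out and which are given here after their values were seen. The promoter region of AT1G34400 averaged 0.0376 CPM late and 9.25 CPM at 2.5 h (log2 -6.70, adjusted p 0.0326 in edgeR), and an intergenic region nearest to RAP2.9 averaged 0.285 CPM late and 10.3 CPM at 2.5 h (log2 -6.11, adjusted p 0.0362). Uncut roots averaged 24.3 and 31.2 CPM there. Among the regions the rule named, an intergenic region on chromosome 3 (17392671 to 17393040), whose nearest start is that of the phospholipase C gene PLC9, had 2.27 to 7.69 CPM late with a median of 3.81 CPM, against 52.7, 40.5 and 27.4 CPM at 2.5 h. Its log2 fold change was -3.25 ± 0.50 (SE; edgeR adjusted p 0.0326), and uncut roots held 27.5 to 33.4 CPM, so the late libraries were below both other groups. A region in exon 3 of FKD1 (AT3G63300, chromosome 3, 23386627 to 23386791), which acts in leaf vein joining, had 3.84 to 9.18 CPM late and 24.1, 50.3 and 40.5 CPM at 2.5 h, a log2 fold change of -2.42 ± 0.47. Uncut roots held 13.5 to 15.1 CPM here, so the 2.5 h libraries stood above both other groups.

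The 2.5 h libraries also stood above both other groups at the promoters of PI-4KBETA1, a phosphatidylinositol 4-kinase, and of SDN2, a nuclease that degrades small RNAs. The PI-4KBETA1 region (chromosome 5, 25644313 to 25644471) had 4 to 15.4 CPM late and 35.5, 29.6 and 41.1 CPM at 2.5 h, against 12.4 to 13.5 CPM in uncut roots. The SDN2 region (chromosome 5, 1636295 to 1636465) had 5.13 to 17.3 CPM late and 28.1, 32 and 54.8 CPM at 2.5 h, against 13.8 to 17.8 CPM in uncut roots. Both fell, by 2.03 ± 0.49 and 1.93 ± 0.49 on the log2 scale.

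The other 4 lower regions named by the rule were those nearest to AT5G57770, a DUF828 protein annotated for auxin canalization, AT4G07932 and MBD7, and a region of chromosome 5 (11655099 to 11655379) without a gene. Their late means were 11.4, 12.7, 17 and 6.33 CPM, against 2.5 h means of 38, 41.2, 47.2 and 28.6 CPM. The region assigned to MBD7, a methyl-CpG-binding protein, lies in exon 6 of the adjoining AT5G59810. Uncut means were 29.2, 26.5, 37.6 and 18.8 CPM, between the late and the 2.5 h means at all 4.

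**Figure D3:**
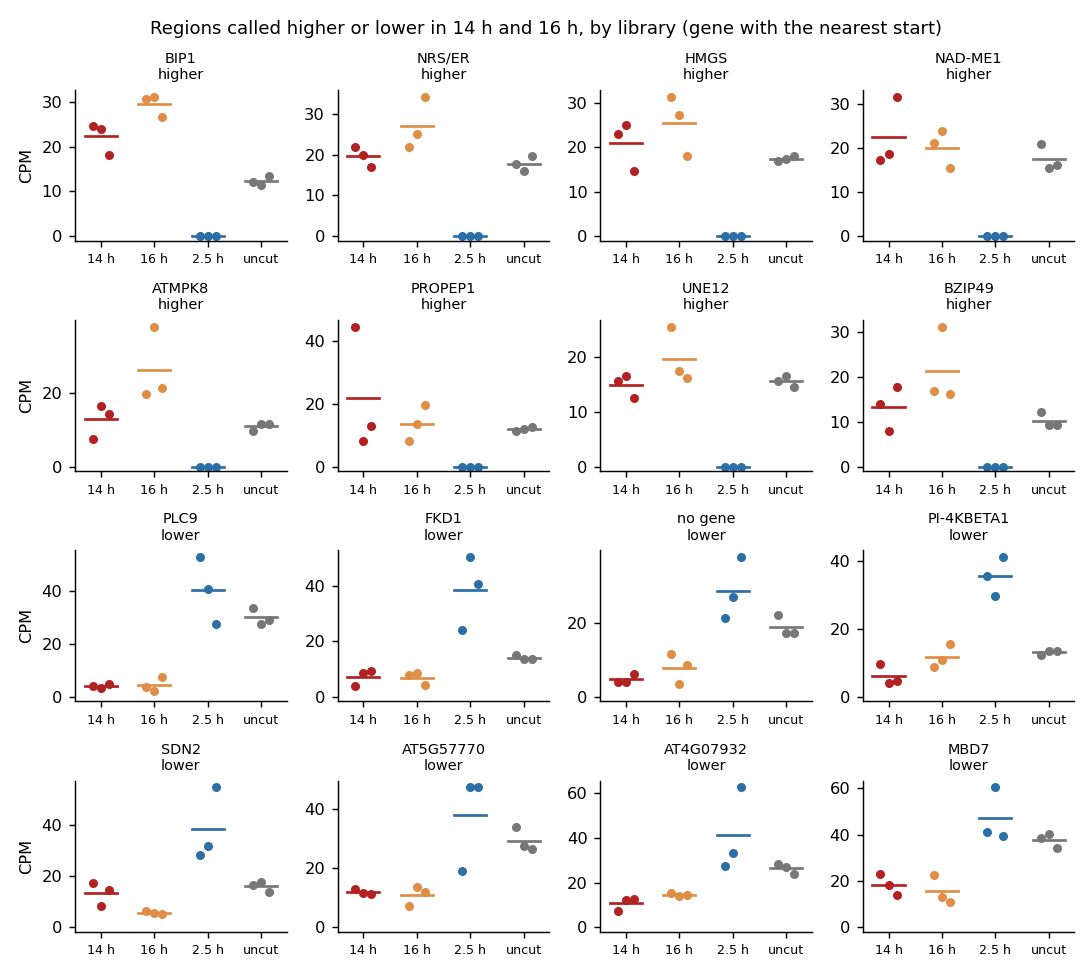
CPM by library (points) and group mean (lines) at the 8 higher and 8 lower regions, with 14 h and 16 h left of 2.5 h and uncut. The 8 higher regions are at 0 in all 3 libraries of 2.5 h, and at the 8 lower regions every late library is below every library of 2.5 h.

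For the 62 higher regions read in all early libraries the change has a size, and 10 of the 62 lie in a stretch of chromosome 2 described below. The examples here were picked from these 62 for their known roles after their values had been seen. In exon 1 of CYP83B1 (chromosome 4, 15274513 to 15275078), an enzyme of indole glucosinolate synthesis that bears on auxin levels, the late libraries had 29.8 to 48.7 CPM with a median of 36.3 CPM and the 2.5 h libraries 2.84, 10.5 and 2.28 CPM. The log2 fold change was 2.83 ± 0.53, and the uncut mean was 37.8 CPM. FER (chromosome 3, 19119695 to 19120294), a receptor kinase of cell wall integrity, had 23.4 to 48.7 CPM late and 10.4, 4.29 and 13.7 CPM at 2.5 h. The log2 fold change was 1.90 ± 0.46.

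A region of WRKY17 (chromosome 2, 10437661 to 10438314), a defence regulator, had 27.7 to 50.3 CPM late and 13.7, 14.8 and 9.13 CPM at 2.5 h, a log2 fold change of 1.64 ± 0.38. WRKY72 averaged 20.7 ± 3.25 CPM late and 4.77 ± 1.76 CPM at 2.5 h. EXPA8 (chromosome 2, 16949928 to 16950425), a wall-loosening expansin, had 20.5 to 56.7 CPM late and 5.20, 10.1 and 12.6 CPM at 2.5 h, a log2 fold change of 1.96 ± 0.47. ATERDJ3A encodes a DNAJ protein of the kind that assists chaperones such as BIP1, and its region averaged 25.5 ± 11.1 CPM late and 5.14 ± 1.96 CPM at 2.5 h.

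A further 3 lower regions, also picked after their values had been seen, lay at NRPD1A, TOP3A and KCS6. NRPD1A, the largest subunit of the polymerase that starts RNA-directed DNA methylation, averaged in its exon region 25.8 ± 2.72 CPM late and 64.5 ± 26.2 CPM at 2.5 h. The region nearest to TOP3A, a topoisomerase, lies in the promoter of AT5G63910 and averaged 15.8 ± 2.36 CPM late and 41.3 ± 6.23 CPM at 2.5 h. KCS6, an enzyme of very long chain lipids, averaged 37.0 ± 8.70 CPM late and 90.4 ± 25.4 CPM at 2.5 h (SD, n = 6 and 3 throughout). In all 3 every late library was below every 2.5 h library.

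A stretch of chromosome 2 near its centromere, where the reference carries a copy of the mitochondrial genome, was singled out after its values had been seen. Between 3.2 and 3.8 Mb it held 140 tested regions, of which 10 were called higher, beside 3.05% of all tested regions. All 10 had reads in every 2.5 h library, where 0.158% of the 39333 such regions were called higher. Reads there cannot be told apart from mitochondrial ones by coordinates, and how reads with several matches were placed is not given in the sources used here. Without this stretch 2769 regions were higher and 18 lower.

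Summed per gene, hardly any gene passed. Of 27834 genes tested by edgeR, 2 were higher late (0.00719%) and 1 was lower (0.00359%), with 1772 and 1432 genes at an unadjusted p under 0.05. Both higher genes were below the median level and are named after their values were seen. AT1G23120 (chromosome 1, 2 regions between 8198846 and 8199350), annotated as a polyketide cyclase and lipid transport protein, had 17.9, 12.9 and 19.8 CPM at 14 h, 16.8, 22.5 and 19.0 CPM at 16 h and 0 reads at 2.5 h (edgeR adjusted p 0.0432). AT1G60840 (chromosome 1, 4 regions between 22397548 and 22398903) is annotated as a tRNA gene and had 798 reads late and 2 at 2.5 h. The ratio of pooled levels was 92.4, with an exact 95% counting interval of 25.5 to 764. All 6 late libraries stood above all early ones at both genes. With no read at 2.5 h, AT1G23120 could differ only upward.

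The lower gene, AT4G06639, is annotated as a hypothetical protein and is the nearest gene along a stretch of chromosome 4. Its 92 regions span 106.3 kb, from 3443715 to 3550031, and 91 of them are intergenic. They summed to 68.9, 83.0 and 70.5 CPM at 14 h and 58.7, 57.5 and 59.3 CPM at 16 h, against 198, 155 and 204 CPM at 2.5 h. The log2 fold change was -1.47 ± 0.21 (SE; edgeR adjusted p 0.0432), and uncut roots held 831 ± 139 CPM. The order was uncut above 2.5 h above late, with no overlap.

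None of the 3 gene calls remained when any 1 of the late libraries was left out, which left 0 calls, 1353 to 1493 genes higher and 1139 to 1244 lower at an unadjusted p under 0.05, and a smallest adjusted p of 0.117 to 0.221. Leaving out 1 library of 2.5 h gave 576 to 786 higher and 134 to 195 lower genes. DESeq2 called 536 genes higher (1.91%) and 249 lower (0.889%). Counted by separation alone, every late library was above every 2.5 h library in 1412 genes (5.07%) and below in 713 (2.56%).

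The genes of 17 lists of root, hormone, wound and chromatin functions were then read against this background. Of 392 list genes tested, 0 passed in edgeR in either direction, with 34 higher (8.67%) and 17 lower (4.34%) at an unadjusted p under 0.05, beside 6.37% and 5.14% of all genes. DESeq2 called 7 higher (1.79%) and 2 lower (0.51%), beside 1.91% and 0.889% of all genes it tested. Separation was found above the early range in 21 (5.36%) and below it in 12 (3.06%), beside 5.07% and 2.56% of all genes. The median log2 fold change was 0.03, beside 0.04 over all genes. At the level of regions, 41 of 1396 tested regions of list genes were higher (2.94%) and 0 lower, close to the 3.05% of all regions. Of the 41, 37 had no read at 2.5 h. Genes and regions without a read at 2.5 h could differ only upward, and their folds are bounds for counting error only. Separated members are listed for each list, those outside the 3 of smallest p after their values were seen. All adjusted p below are from edgeR's quasi-likelihood test with Benjamini-Hochberg adjustment over all genes.

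**Figure D4:**
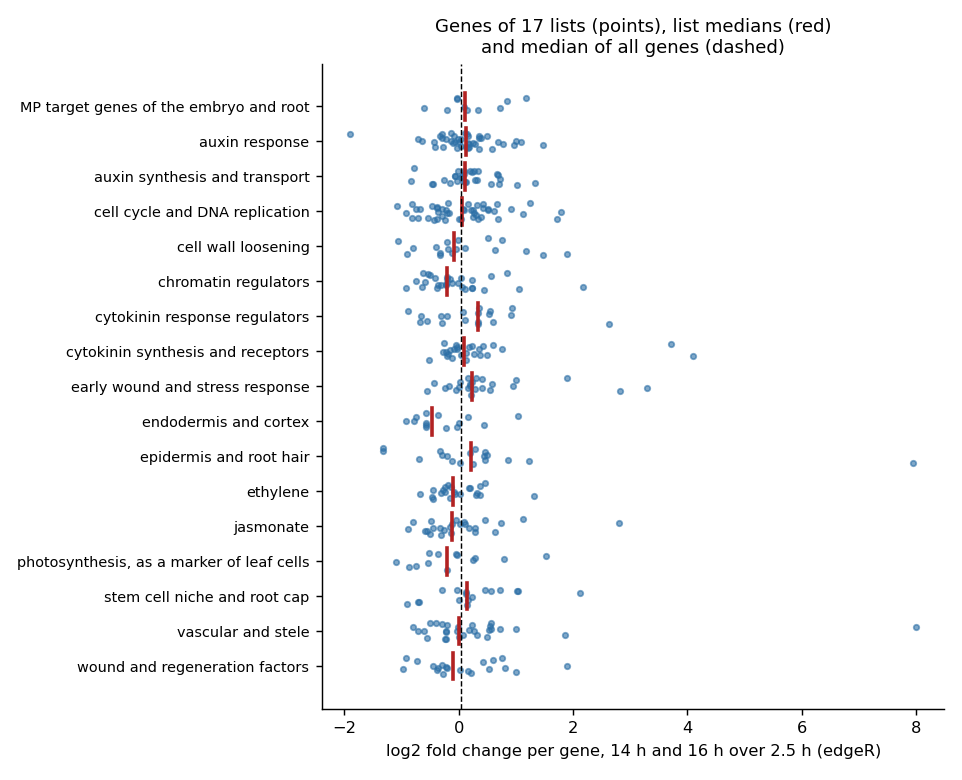
Log2 fold change per gene (14 h and 16 h over 2.5 h) for the members of 17 lists (points), the median of each list (red) and the median of all 27834 genes (dashed, 0.04). List medians lie between -0.46 and 0.33, and the points near 8 are CLE44 and ETC1, which had no read at 2.5 h.

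In the list of the stem cell niche and root cap (17 genes, median 0.15), 3 members were separated upward and 0 downward. NUC, MGP and JKD encode the BIRD proteins that work with SHR and SCR in ground tissue patterning. NUC (AT5G44160, chromosome 5, 5 regions) had 83.2 to 125 CPM late with a median of 92.0 CPM, against 55.1, 45.9 and 42.7 CPM at 2.5 h, a log2 fold change of 1.03 ± 0.23 (adjusted p 0.0893). MGP (AT1G03840, chromosome 1, 3 regions) had 22.4 to 34.2 CPM late with a median of 28.8 CPM, against 12.2, 3.5 and 2.85 CPM at 2.5 h, a log2 fold change of 2.12 ± 0.54 (adjusted p 0.116). JKD (AT5G03150, chromosome 5, 2 regions) had 20.5 to 47.6 CPM late and 14.8, 15.7 and 19.9 CPM at 2.5 h (log2 1.05 ± 0.40, adjusted p 0.329). These are the 3 separated members, with every late library above every 2.5 h library. DESeq2 gave NUC and MGP adjusted p of 0.0022 and 0.00472. Uncut means were 71.6, 19.2 and 23.5 CPM, between the stages in all 3.

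In the vascular and stele list (29 genes, median 0.01) 1 member (CLE44) was separated upward and 1 (IRX3) downward. CLE44 (AT4G13195, chromosome 4, 1 region) encodes a peptide of the TDIF type that acts in the vascular cambium. Its region had 4.76 to 9.89 CPM late and no read at 2.5 h, at least 18.1-fold higher by level but at an adjusted p of 0.0885. The regional test called this single promoter region. That call rests on the same reads, which could differ only upward, so it adds no support. NAC086, a factor of phloem sieve element maturation, averaged 26.9 ± 14.8 CPM late and 7.46 ± 2.98 CPM at 2.5 h. The MP target list (10 genes, median 0.12) had no separated member: TMO6 averaged 54.8 ± 12.6 CPM late and 83.0 ± 22.3 CPM at 2.5 h, and HB-8 had 26.5 ± 12 CPM late and 16.7 ± 10.2 CPM at 2.5 h. BHLH32, also known as TMO5, had 23.0 ± 7.33 CPM late and 9.99 ± 10.5 CPM at 2.5 h.

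Of 30 genes of auxin synthesis and transport (median 0.11), 2 (AUX1, YUC8) were separated upward and 2 (TAA1, TAR1) downward. The influx carrier AUX1 (AT2G38120, chromosome 2, 2 regions) had 21.4 to 42.4 CPM late and 13.0, 12.7 and 7.12 CPM at 2.5 h (log2 1.34 ± 0.44, adjusted p 0.244). TAA1 and TAR1, aminotransferases of the first step of auxin synthesis, had lower values in the late libraries. TAA1 (AT1G70560, chromosome 1) had 33.3 to 43.3 CPM late and 87.9, 59.0 and 43.4 CPM at 2.5 h (log2 -0.78 ± 0.28, adjusted p 0.283). TAR1 (AT1G23320, chromosome 1) had 29.8 to 66.7 CPM late and 95.9, 84.8 and 88.3 CPM at 2.5 h (log2 -0.84 ± 0.27, adjusted p 0.228). Both stayed below the whole early range in all 6 late libraries.

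The 42 genes of auxin response had a median of 0.12, with 2 (GRH1, NPH4) separated upward and 1 (ARF17) downward. A single region nearest to ARF17, in an exon of AT1G77840, went the other way and was called higher. It had 7.72 to 14.2 CPM late and 0, 0.779 and 0.571 CPM at 2.5 h. The receptor GRH1, also known as AFB1, averaged 36.3 ± 6.2 CPM late and 18.8 ± 5.28 CPM at 2.5 h. NPH4, also known as ARF7, averaged 41.1 ± 6.93 CPM late and 20.2 ± 11.3 CPM at 2.5 h. The repressor IAA13 averaged 6.82 ± 4.26 CPM late and 25.9 ± 26.3 CPM at 2.5 h, with 54.8, 19.2 and 3.56 CPM in the 3 early libraries, so that the ranges overlap. Among the regions called higher were single ones of the carriers PIN3 and LAX1, the synthesis genes TAR2 and YUC8, the response factor ARF6 and the repressor IAA7, each with 0 reads at 2.5 h. Those of YUC8 and ARF6 are intergenic and tied to these genes by the nearest start only.

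AHP2 and AHP1 encode phosphotransfer proteins of the cytokinin pathway. AHP2 (AT3G29350, chromosome 3, 2 regions) had 7.84 to 29.3 CPM late and 0, 0 and 3.56 CPM at 2.5 h (log2 4.10 ± 1.18, adjusted p 0.179). AHP1, with 3 reads at 2.5 h, had a pooled ratio of 13.3 with an exact 95% counting interval of 4.47 to 65.0. These are the 2 members separated upward among 26 genes of cytokinin synthesis and reception (median 0.09), and the biosynthesis gene IPT3 averaged 37.4 ± 6.73 CPM late and 54.1 ± 22.1 CPM at 2.5 h. The response regulators (19 genes, median 0.33) had 1 member separated downward, ARR9, at 31.5 ± 11.6 CPM late and 59.3 ± 10.9 CPM at 2.5 h. RR5 averaged 14.8 ± 11.1 CPM late and 2.12 ± 3.67 CPM at 2.5 h, and RR2 averaged 74.4 ± 12.5 CPM late and 110 ± 29.7 CPM at 2.5 h.

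**Figure D5:**
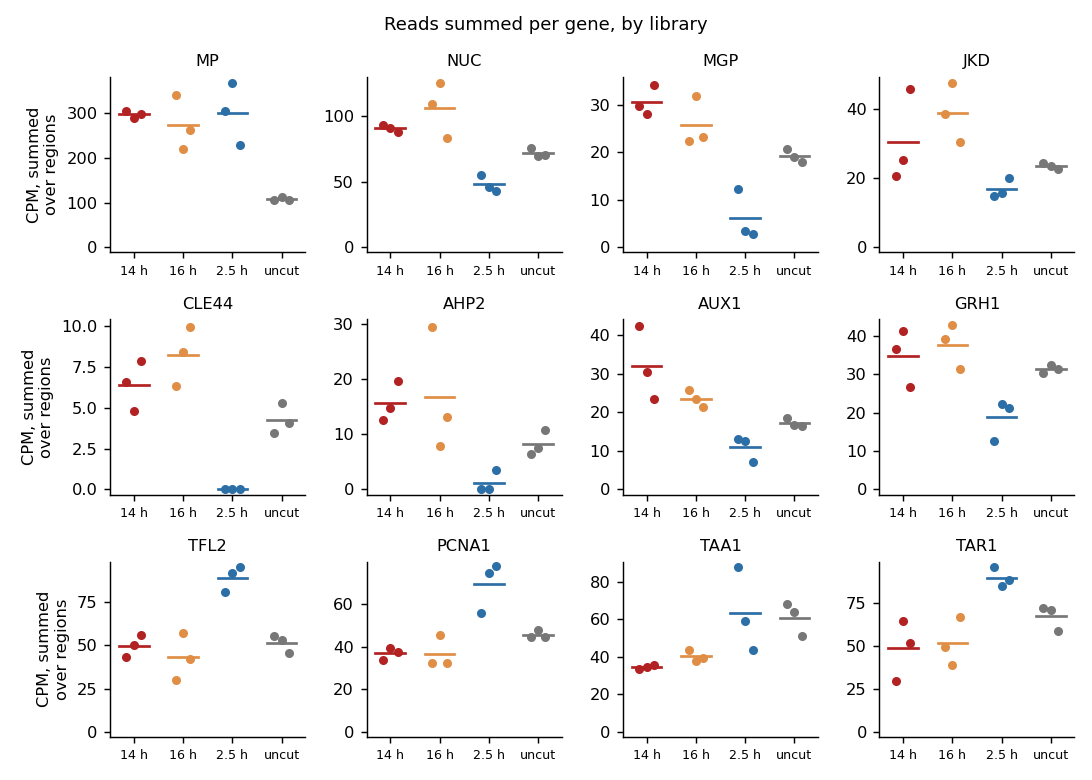
CPM summed over the regions of 12 genes by library (points) with group means (lines), 14 h and 16 h left of 2.5 h and uncut. MP overlaps between stages, the next 7 genes lie higher in all late libraries than in any of 2.5 h, and TFL2, PCNA1, TAA1 and TAR1 lie lower in all late libraries.

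Chromatin genes had a median of -0.20 over 29 genes, with 2 (FAS1, ATXR2) separated upward and 2 (TFL2, CHR23) downward. TFL2 (AT5G17690, chromosome 5, 3 regions), also known as LHP1, binds the Polycomb mark on histone H3. It had 30.0 to 57.5 CPM late with a median of 46.7 CPM, against 80.8, 91.8 and 95.4 CPM at 2.5 h (log2 -0.93 ± 0.25, adjusted p 0.144). FAS1, a subunit of the chromatin assembly factor that loads histones behind the replication fork, averaged 46.8 ± 8.58 CPM late and 22.1 ± 9.24 CPM at 2.5 h (log2 1.06 ± 0.35, adjusted p 0.239). Of its 7 regions 3 were called higher. All 3 had 0 reads at 2.5 h and could differ only upward, so these calls add no support. With promoter regions only the sign of FAS1 turned, to a log2 value of -1.01. ATXR2, a histone methyltransferase, averaged 11.5 ± 4.21 CPM late and 2.47 ± 1.36 CPM at 2.5 h.

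Among 46 genes of the cell cycle and replication (median 0.05) 0 were separated upward and 2 (PCNA1, CYCB1;4) downward. PCNA1 (AT1G07370, chromosome 1, 4 regions), the sliding clamp of DNA replication, had 32.1 to 45.5 CPM late and 55.9, 74.7 and 77.6 CPM at 2.5 h (log2 -0.91 ± 0.26, adjusted p 0.170). DESeq2 called TFL2 and PCNA1 lower, with adjusted p of 0.0187 and 0.0249, and these are its 2 lower calls among all list genes. CYCD2;1, a D-type cyclin, averaged 39.2 ± 12.1 CPM late and 12.6 ± 12.6 CPM at 2.5 h. The E2F family gene ATE2F2 averaged 74.4 ± 25.2 CPM late and 47.1 ± 6.89 CPM at 2.5 h, with 2 of its 9 regions called higher. Single regions of E2F1, MCM6, MYB3R-4 and CYCD4;1 were called too. All these called regions had 0 reads at 2.5 h and could differ only upward. Of the 155 tested regions of this list 3.87% were called higher, beside 3.05% of all tested regions.

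In the early wound and stress list (24 genes, median 0.23) 2 (PROPEP1, WRKY18) were separated upward. PROPEP1 summed to 10.6 to 58.3 CPM late with a median of 22.1 CPM, and to 8.21, 1.31 and 0 CPM at 2.5 h (adjusted p 0.209). RBOH F, an oxidase that makes superoxide, averaged 59.8 ± 14.6 CPM late and 29.3 ± 17.8 CPM at 2.5 h, and ERF104 averaged 7.56 ± 5.00 CPM late and 0.618 ± 1.07 CPM at 2.5 h. Single regions of STZ and ERF6, both stress-responsive regulators, had no read at 2.5 h and were called higher. By the bound for counting error their late levels were at least 24.5-fold and 24.6-fold higher.

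The wound and regeneration factors (20 genes, median -0.09) had 0 separated upward and 1 (LBD18) downward. A region of LBD29, a factor of lateral root formation, lies in exon 2 (chromosome 3, 21548767 to 21548917). It had 10.2 to 17 CPM in the late libraries and no read at 2.5 h, at least 36.5-fold higher. XTH19, a wall-remodelling enzyme, averaged 34.7 ± 12.3 CPM late and 8.72 ± 11.3 CPM at 2.5 h. PAT1, a GRAS factor, averaged 67.5 ± 13.6 CPM late and 40.8 ± 23.2 CPM at 2.5 h. RRTF1, also known as ERF109 and tied to early jasmonate signalling, averaged 38.5 ± 17.9 CPM late and 18.8 ± 12 CPM at 2.5 h. In jasmonate (25 genes, median -0.11, 1 separated upward) AOC3, a synthesis enzyme, averaged 47.6 ± 12.3 CPM late and 22.3 ± 14.1 CPM at 2.5 h. The repressor JAZ6, the separated member, averaged 11.5 ± 5.13 CPM late and 1.60 ± 2.78 CPM at 2.5 h, and the adaptor NINJA 74.2 ± 13.8 CPM late and 109 ± 39.5 CPM at 2.5 h. A region of LOX3, a lipoxygenase of jasmonate synthesis, had no read at 2.5 h and was called higher. By the bound for counting error its late level was at least 34.4-fold higher. In ethylene (22 genes, median -0.11) no member was separated, and EIL1, CTR1 and ACS5 had the smallest p, with adjusted values of 0.557, 0.565 and 0.591.

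Wall-loosening genes (18 genes, median -0.08) had 2 separated upward, both expansins. EXPA8 summed to 44.5 ± 15.2 CPM late and 16.4 ± 9.21 CPM at 2.5 h (adjusted p 0.217), and EXPA10 to 62.7 ± 8.14 CPM late and 26.7 ± 24.8 CPM at 2.5 h. The epidermis and root hair list (18 genes, median 0.22) had 2 separated upward, ETC1 and GL2. ETC1, a single-repeat MYB of hair patterning, had 2.44 to 15.2 CPM late and no read at 2.5 h, at least 17.3-fold (adjusted p 0.114), and GL2 averaged 20.6 ± 5.01 CPM late and 8.62 ± 1.72 CPM at 2.5 h. CPC averaged 35.5 ± 16.1 CPM late and 19.3 ± 5.66 CPM at 2.5 h.

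The endodermis and cortex list had the lowest median of the 17, -0.46 over 14 genes, with JKD separated upward and ESB1 downward. ESB1, which acts in the Casparian strip, averaged 48.6 ± 9.85 CPM late and 71.8 ± 4.69 CPM at 2.5 h (adjusted p 0.412). CASP2, a protein of the same barrier, averaged 37.4 ± 7.55 CPM late and 69.9 ± 31.6 CPM at 2.5 h (adjusted p 0.267). Photosynthesis genes, as markers of leaf cells, had a median of -0.20 over 13 genes, with 2 separated upward and 1 downward. LHCB2.1 averaged 69.4 ± 15.8 CPM late and 115 ± 12.6 CPM at 2.5 h, LHCB3 averaged 58.7 ± 10.1 CPM late and 33.9 ± 7.6 CPM at 2.5 h, and PSAD-1 averaged 18.3 ± 5.52 CPM late and 6.04 ± 5.62 CPM at 2.5 h.

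Whether the 2 late times differed was tested in a fit with a mean for each time. Between 16 h and 14 h, 0 regions and 0 genes passed in edgeR, with 190 regions and 129 genes at an unadjusted p under 0.05. For NUC the log2 fold change over 2.5 h was 0.91 at 14 h and 1.14 at 16 h, for TFL2 it was -0.84 at 14 h and -1.04 at 16 h, and for PCNA1 -0.91 at 14 h and -0.92 at 16 h. In the same fit, neither time gave a called region or gene against 2.5 h, with 6797 regions and 2189 genes at 14 h and 6632 regions and 2055 genes at 16 h at an unadjusted p under 0.05. These 2 comparisons share the libraries of 2.5 h.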

How the data were processed

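The deposited counts are raw reads per region, made by the authors on a region set of each time. A set is not limited to regions read at its time, as 7241 shared regions had no read at 2.5 h. The uncut libraries were counted on the set of 16 h. The submitters' processing notes list the build TAIR10 and, without version or role, HOMER, MACS2, DESeq2, Bowtie2 and SAMtools. How duplicates were treated is not given in the sources used here. Gene names, locations and distances come from the deposited annotation of regions, and 53 regions whose gene had become a calendar date were resolved to 20 genes. A further 18 columns of per-library values in the authors' tables were not used.

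Regions with identical coordinates at 14 h, 16 h and 2.5 h were kept, filtered by edgeR's filterByExpr, scaled by TMM and tested with the quasi-likelihood test (edgeR 4.0.16, R 4.3.3) as 6 late against 3 early libraries, with Benjamini-Hochberg adjustment and a threshold of 0.05. Gene values are sums over regions. DESeq2 1.42.0, other scalings and filters, thinning, the replicate block and libraries left out were alternatives. The fit was also run on simulated counts. Large changes were placed there in highly read regions and genes only, without the lower breadth of 2.5 h. The simulation therefore does not bear on calls at regions unread at 2.5 h. Shares and breadth were compared by exact permutation tests (scipy 1.17.1), two-sided. Counting intervals are exact, and they and the floor of 3 reads over the 2.5 h group cover counting error only.

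Named were MP and, in each direction, up to 10 genes and 8 regions with the largest fitted change. These had to be past the threshold, above the median level and without overlap. From every list the 3 genes of smallest p at most were named. Members and lists were chosen with earlier results of these data known. No sequences or motifs were read, since no genome was used here.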

Additional observations from a re-analysis of the deposited data

Results flagged for a closer look

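Among 77 values, the 6 late libraries were searched for a library far from the other 5, meaning that its gap to the nearest library, as a share of the group's range, passed Dixon's limit of 0.625. Chance flags about 1 in 20, and 7 were found. PROPEP1 stood out in 14 h replicate 1 on both scales, with 44.6 CPM in its called region (next library 19.7 CPM) and 58.3 CPM summed per gene (next library 24.7 CPM). The same library was lowest at the region nearest to AT4G07932, with 7.53 CPM (next 12.4 CPM), and for IPT3, with 24.2 CPM (next 37.0 CPM). PSAD-1 had 28.6 CPM in 16 h replicate 1 (next 18.0 CPM). In 16 h replicate 2, RRTF1 had 73.7 CPM (next 39.8 CPM) and introns took 2.01% of reads (next 2.17%).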

How the results depend on the processing

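The main counts were 2775 higher and 17 lower regions and 2 higher and 1 lower genes. The regions became 5722 and 191 with DESeq2, 102 and 2 above the median level, and 115 and 3 thinned; lower regions became 28 with DESeq2 size factors, 78 without TMM and 5 against a log2 fold change of 1. Genes became 536 and 249 with DESeq2, 4 and 0 within 1 kb of a start, 341 and 7 from promoters, and 0 higher above the median level; thinned or against a fold change of 1, both were 0. A mean for each of 3 times, 14 h alone and 16 h alone gave 0 calls of any kind. Leaving out a library gave 0 to 9667 higher and 0 to 176 lower regions, and 0 to 786 higher and 0 to 195 lower genes; the cause was not tested. Replicate numbers do not pair the libraries (same-number correlations -0.05 to 0.01), and with the number as a block the calls were 0, with 9160 higher and 548 lower regions at an unadjusted p under 0.05.

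Signs turned for TMO6 (0.64), EIL1 (-0.19) and FAS1 (-1.01) from promoters, FAS1 within 1 kb (-0.57) and ACS5 with a library left out (-0.68 to 0.046, above 0 without 2.5 h replicate 2). Measured as thinned regions with a read, the late minus 2.5 h difference in percentage points was 25.3 for exons, 24.8 for transcription ends, 26.3 intergenic, 25.3 for chromosome 3, 25.7 for chromosome 5, 27.2 for promoters, 30.2 for introns, 24.8 within 1 kb, and 27.0, 25.5 and 25.3 for chromosomes 1, 2 and 4. Shares of reads with a library left out differed by 0.71 to 1.3 for promoters, 0.24 to 0.30 for introns, -0.21 to 0.11 for exons, -0.28 to -0.12 for transcription ends, -1.58 to -0.48 intergenic and 0.34 to 1.42 within 1 kb, and on chromosomes 1 to 5 by -1.25 to 1.96, -0.12 to 0.64, -1.19 to 0.32, -0.46 to 0.55 and -0.75 to -0.05. All 16 named regions lost their call without any one late library, with 14 h or 16 h alone, with 3 group means and with the replicate block, and some did without 2.5 h replicate 2 (2) or 3 (4), thinned (6), above the median level (6), against a log2 fold change of 1 (6) or with no filter (1).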
